A study of Mus musculus with 3 samples.

Results

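The 51 genes described here encode transcription factors known for building lineages other than liver, and they were measured in hepatocytes of mouse liver, which the series title calls adult. They were chosen by name, with no measured value in the rule, from the Pax, Lhx, Dlx, Irx, Nkx, Pdx and Cdx, and Tbx families, from the sine oculis homeobox genes Six2, Six3 and Six6, and from the neural and myogenic basic helix-loop-helix (bHLH) factors. They are 51 of 21627 protein-coding genes placed on the genome. The 7 neural bHLH genes and the 4 myogenic bHLH genes were set against the 40 genes of the other families.

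Accessible chromatin was read by ATAC-seq, in which Tn5 transposase inserts sequencing adapters where DNA is not covered by nucleosomes. All 3 libraries came from liver of wild-type mice whose age and sex the labels do not give. Per the labels, the animals had received AAV8-TBG-Cre, the control virus (EV), by retro-orbital injection, and hepatocytes were taken 4 days later, freed with liberase and enriched on Percoll. TBG is a promoter active in hepatocytes and drives Cre in all 3 libraries, and nuclei were prepared from sorted cells whose sorting marker is not named. The series asks how Sox4, delivered by a second virus, alters this chromatin, and the Sox4 libraries were not analysed here. The design analysed therefore holds 1 group of 3 libraries, which the labels do not say came from separate animals, and no comparison between treatments. The spread between libraries may be technical.

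Pax and homeodomain factors such as Lhx, Dlx, Nkx and Cdx lay out organs and cell types in the embryo, and bHLH factors such as Neurog2 and Myod1 commit progenitors to neurons and to skeletal muscle. In adult tissues where they are silent, the start sites of many such genes lie in CpG islands that Polycomb complexes keep repressed. CpG-rich start sites are in general accessible whether or not the gene is strongly transcribed, so an accessible start site is not a measure of transcription.

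The libraries labelled EV replicates 1, 2 and 3 held 96066404, 116147036 and 117450440 tags, and the authors called 108997, 119230 and 110455 peaks in them. The library labelled EV replicate 2 stood apart. At Sox4 its tallest peak had a pileup of 2544 tags and ranked 9 in its list, against 128 tags at rank 55819 in replicate 1 and 134 tags at rank 60777 in replicate 3. That signal goes against the control label, which may be wrong for this library and could not be checked further. The main counts below are therefore also given for replicates 1 and 3. Whether the Sox4 signal is related to any difference of that library was not tested. Gene-end peaks were shared by all 3 libraries at 8 of 8 hepatocyte markers and 21 of 22 hepatocyte regulators. They were shared at 0 of 5 macrophage, 1 of 5 endothelial, 2 of 5 cholangiocyte, 1 of 4 stellate cell and 0 of 4 lymphocyte markers. They were also shared at 4 of 4 neuron and 3 of 4 skeletal muscle markers, which belong to cells outside liver parenchyma. These counts take either end of a gene. At the start site, among markers with a promoter sequence, a peak was shared at 1 of 3 neuron, 0 of 3 skeletal muscle and 6 of 6 hepatocyte markers.

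Promoter sequences were at hand for 38 of the 51 genes, from RefSeq on GRCm38.p6, each running from 250 bases before the start site to 50 after it. The 6 below are shown because they span the patterns described in the results. They are printed 5′ to 3′ on the strand of the gene, and capitals mark each CpG. Dlx1, a factor of forebrain interneurons (chr2:71529195-71529494, plus strand, 27 CpG), and Nkx6-1, a factor of pancreatic beta cells and motor neurons (chr5:101664662-101664961, minus strand, 40 CpG), had a start-site peak in every library.
Dlx1: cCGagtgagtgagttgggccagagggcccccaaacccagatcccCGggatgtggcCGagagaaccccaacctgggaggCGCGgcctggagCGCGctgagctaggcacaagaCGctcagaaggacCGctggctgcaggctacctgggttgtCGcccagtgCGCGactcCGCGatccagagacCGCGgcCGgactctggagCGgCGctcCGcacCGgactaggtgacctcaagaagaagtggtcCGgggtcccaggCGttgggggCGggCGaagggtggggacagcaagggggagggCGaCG
Nkx6-1: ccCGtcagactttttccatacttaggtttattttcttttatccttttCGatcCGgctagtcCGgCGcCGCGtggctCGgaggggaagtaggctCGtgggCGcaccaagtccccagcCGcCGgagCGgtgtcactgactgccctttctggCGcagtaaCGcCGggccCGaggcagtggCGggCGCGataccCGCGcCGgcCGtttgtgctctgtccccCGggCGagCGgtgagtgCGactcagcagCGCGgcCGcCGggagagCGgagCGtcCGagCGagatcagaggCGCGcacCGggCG
Six2, a factor of kidney nephron progenitors (chr17:85688205-85688504, minus strand, 37 CpG), had one in the library labelled replicate 2 alone.
Six2: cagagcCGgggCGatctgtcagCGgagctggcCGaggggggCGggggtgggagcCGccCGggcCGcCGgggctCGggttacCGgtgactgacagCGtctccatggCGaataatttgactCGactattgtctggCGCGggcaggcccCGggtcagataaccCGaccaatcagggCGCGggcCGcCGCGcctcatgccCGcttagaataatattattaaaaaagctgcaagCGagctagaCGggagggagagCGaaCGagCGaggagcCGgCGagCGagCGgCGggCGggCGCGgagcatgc
Lhx1, a factor of the embryonic head and kidney (chr11:84525485-84525784, minus strand, 31 CpG), and Neurod1, a factor of neurons and endocrine pancreas (chr2:79456587-79456886, minus strand, 26 CpG), are likewise rich in CpG and had none in any library.
Lhx1: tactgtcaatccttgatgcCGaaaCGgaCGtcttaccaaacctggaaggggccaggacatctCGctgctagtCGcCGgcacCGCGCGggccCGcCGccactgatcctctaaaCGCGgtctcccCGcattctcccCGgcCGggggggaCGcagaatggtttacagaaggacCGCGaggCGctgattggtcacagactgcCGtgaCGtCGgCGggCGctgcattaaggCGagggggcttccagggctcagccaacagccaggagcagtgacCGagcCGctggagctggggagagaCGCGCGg
Neurod1: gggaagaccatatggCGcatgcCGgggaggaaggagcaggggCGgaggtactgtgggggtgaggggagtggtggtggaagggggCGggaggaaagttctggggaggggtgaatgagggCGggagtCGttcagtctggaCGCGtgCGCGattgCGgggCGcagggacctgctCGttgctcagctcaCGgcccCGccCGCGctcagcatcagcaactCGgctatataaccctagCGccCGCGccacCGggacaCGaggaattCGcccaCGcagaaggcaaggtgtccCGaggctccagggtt
Myf5, a factor of early skeletal muscle (chr10:107486085-107486384, minus strand, 3 CpG), is poor in CpG, holds the letters TATAAA, and had none.
Myf5: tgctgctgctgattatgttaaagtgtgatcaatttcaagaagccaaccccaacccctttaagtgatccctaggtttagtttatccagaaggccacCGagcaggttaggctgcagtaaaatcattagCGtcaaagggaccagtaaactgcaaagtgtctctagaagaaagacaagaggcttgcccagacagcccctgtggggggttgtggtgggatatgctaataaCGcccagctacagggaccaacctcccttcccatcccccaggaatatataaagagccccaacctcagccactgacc

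In replicates 1 and 3, and in all 3 libraries together, a lower share of these genes than of protein-coding genes in general was open at an end, whereas in the library labelled replicate 2 the share was higher. A gene was called open at an end when a peak lay within 1000 bp of either end of the gene. This was so in 26 of the 51 genes in replicate 1, 38 in replicate 2 and 26 in replicate 3, which is 50.98%, 74.5% and 50.98% and gives 30.0 ± 6.93 genes per library (SD, n = 3). The shares of all 21627 protein-coding genes were 65.9%, 69.5% and 65.9%. All 3 libraries shared the call at 22 of the 51 genes (43.1%), beside 64.4% of all protein-coding genes. In replicates 1 and 3 without the library labelled replicate 2, the shared calls were 23 of 51 (45.1%) beside 65.0%. With a call in any library taken as enough, the order turned, to 40 of 51 (78.4%) beside 70.6%. A window of 2500 bp gave 34 of 51 (66.7%) beside 70.9%, and the 50000 peaks of each library with the highest −log10 q gave 7 of 51 (13.7%) beside 54.4%.

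**Figure D1:**
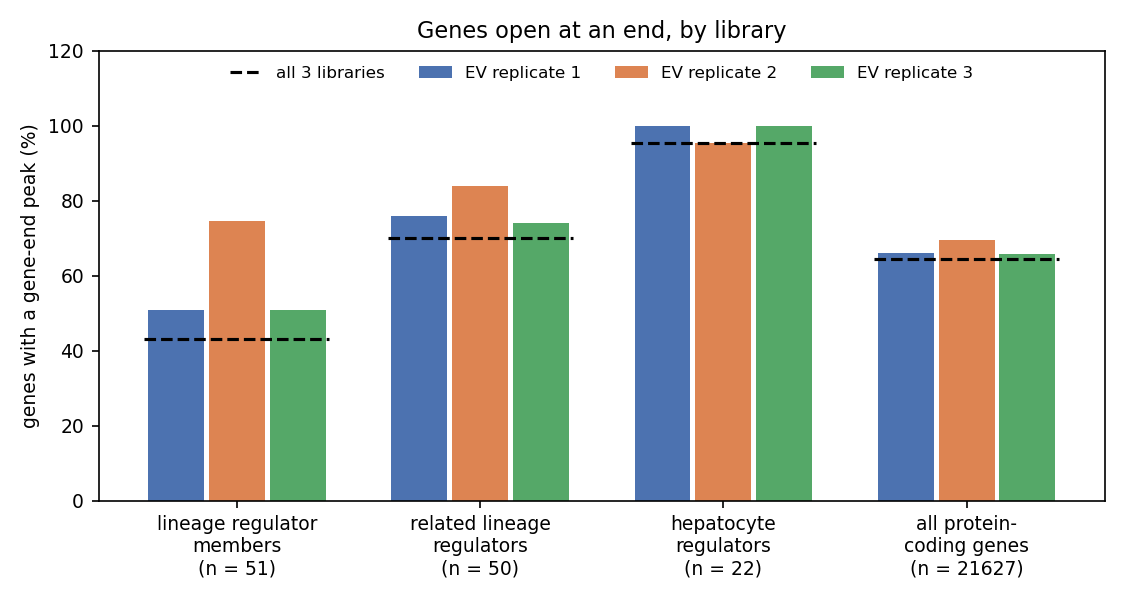
Share of genes (y axis, %) with a peak within 1 kb of a gene end in each of the 3 EV libraries (bars) and in all 3 together (dashed lines), for the 51 lineage factor genes, all protein-coding genes and 2 comparison lists. The lineage factor genes stand at 50.98%, 74.5% and 50.98% in replicates 1, 2 and 3, while the other sets vary less between libraries.

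The families differed in these counts, which are descriptions of few genes each. Dlx genes were open at an end in all 3 libraries in 5 of 6 cases, Lhx genes in 5 of 8, Irx genes in 3 of 6 and Nkx genes in 2 of 4. Tbx genes were so in 1 of 2 cases, Pdx and Cdx genes in 1 of 3, the sine oculis genes in 1 of 3 (Six6) and Pax genes in 2 of 8. Of the neural bHLH genes 2 of 7 were open in all 3 libraries, namely Neurog2 and Neurod4, and of the myogenic bHLH genes 0 of 4. The other families together reached 20 of 40. In replicates 1 and 3 the family counts were the same except for the myogenic genes, where Myog made it 1 of 4.

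Lists of related genes gave other shares. At gene ends, a list of 50 further regulators of non-liver lineages reached 35 (70.0%) in all 3 libraries. That share lay on the other side of the 64.4% of all protein-coding genes, and replicates 1 and 3 gave 36 (72%). The 22 hepatocyte regulators reached 21 (95.5%), and 22 of 22 in replicates 1 and 3. The start site gave another order for the further regulators of non-liver lineages. Of their 36 genes with a promoter, 21 (58.3%) had a start-site peak in all 3 libraries, beside 62.6% of all genes with one. The lineage factor genes stood at 42.1%. In replicates 1, 2 and 3 the further regulators stood at 63.9%, 77.8% and 63.9%, beside 63.7%, 67.6% and 63.7%.

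**Figure D2:**
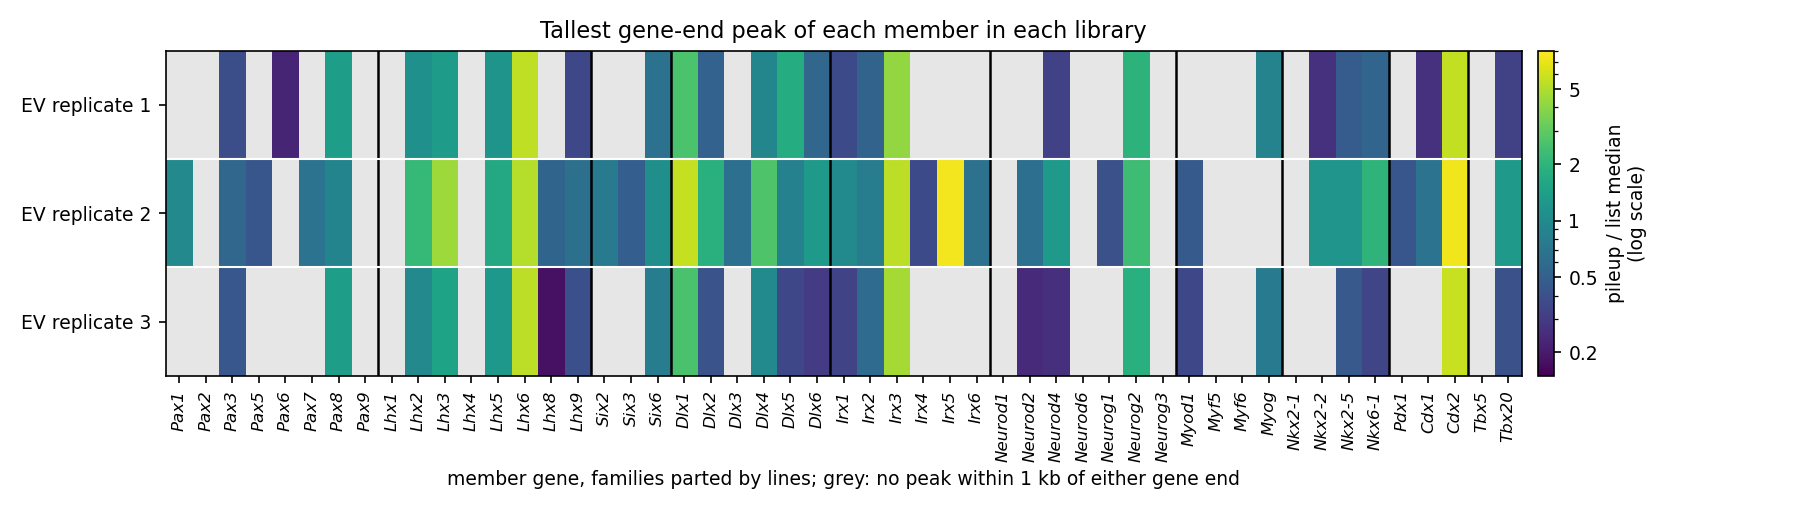
Tallest gene-end peak of each of the 51 genes (columns, families parted by lines) in each EV library (rows), coloured by its pileup divided by the median pileup of that library's peak list on a log scale, with grey for no peak within 1 kb of either end. The row of replicate 2 has 38 coloured cells and the rows of replicates 1 and 3 have 26 each.

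The highest median fold at a gene end belonged to Cdx2, the factor of intestinal epithelium. Its pileup, the number of extended tags over the summit as the authors deposited it without scaling for depth and here taken from the tallest gene-end peak of each library, was 736, 915 and 896 tags in replicates 1, 2 and 3. The peak caller's fold over the local background was 16.1, 15.8 and 17.8. All 3 libraries were thus high, in a region of 1273 bp on chromosome 5 (147298994 to 147300266, mm10) that begins 634 bp beyond the far end of Cdx2 and also lies within 50 kb of Pdx1, the factor of pancreas. The region at the start site of Cdx2 was low, with 64, 111 and 47 tags and replicate 2 the highest. Lhx6, a factor of cortical interneurons, had pileups of 725, 641 and 842 tags at the far end of the gene, with folds of 13.9, 15.7 and 13.7. Irx3, an Iroquois factor of patterning in heart and neural tube, had 561, 677 and 734 tags at its start, beside the antisense gene Irx3os.

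At these tallest ends the libraries lay close together in all 3 genes. Lhx3, a factor of pituitary and motor neurons, had 180, 559 and 238 tags, and replicate 2 lay above the others at an end that Qsox2 also reaches. Dlx1 had 347, 703 and 399 tags at a start shared with Dlx1as, again with replicate 2 on top. Dlx4 had 124, 334 and 158 tags beside Dlx4os, in the same order. For none of these pairs can the signal be given to 1 gene, since ATAC-seq carries no strand.

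Pax8, a factor of thyroid and kidney, went the other way at its far end, with 185, 113 and 214 tags and folds of 16.4, 8.49 and 15.9. Neurog2, which commits progenitors to neurons, had 260, 290 and 294 tags, and Lhx5, a forebrain factor, 157, 208 and 195. Six6, a factor of eye and pituitary, had 88, 135 and 126. In these 3 the libraries lay close together.

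Most gene-end peaks of the set were low. In all 3 libraries, 7 of the 51 genes (13.7%) had a gene-end peak above the median pileup of the library's own list, beside 55.2% of all protein-coding genes. They were Lhx3, Lhx5, Lhx6, Dlx1, Irx3, Neurog2 and Cdx2. By library the counts were 10, 18 and 9 genes, beside 56.5%, 61.8% and 56.5% of all protein-coding genes. Among the genes called in all 3 libraries, the cardiac factor Tbx20 had 44, 160 and 63 tags, Nkx6-1 had 73, 248 and 54, and the retinal and neuronal factor Neurod4 had 43, 158 and 40. Lhx2, a forebrain and eye factor that is also known from hepatic stellate cells, had 146, 270 and 153 tags. Among these 4 genes replicate 2 was the highest each time.

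A further 18 genes had a gene-end peak in some but not all libraries, and 11 of them had it in the library labelled replicate 2 alone. That is 21.6% of the 51 genes, beside 3.71% of all protein-coding genes and 8% (4 of 50) of the further regulators of non-liver lineages. By contrast 1 gene, Pax6, was called in replicate 1 alone, beside 0.365%, and 0 in replicate 3 alone, beside 0.162%. The 11 were the sclerotome factor Pax1, the B cell factor Pax5, the muscle progenitor factor Pax7, Six2, the eye and forebrain factor Six3, the skin factor Dlx3, Irx4, Irx5, Irx6, the neuronal factor Neurog1 and Pdx1. With as many peaks taken from each library as the shortest list holds (108997), the share stayed at 21.6%, beside 3.33%.

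The heights of these peaks were modest. Pax1 had 121 tags in replicate 2, Six2 had 98, Pax7 had 85, Irx6 had 83 and Six3 had 62. Pax5 and Pdx1 had 54 tags each, Neurog1 had 50 and Irx4 had 46. Over these 9 genes the fold ran from 3.01 to 6.26 and the −log10 q from 9.83 to 50.02, with 8 of 9 at 10 or more. The peaks stood between percentiles 13.8 and 48.8 of that library's list, all below its middle. The remaining 2 genes had regions of both kinds. Irx5 had 929 tags in replicate 2, in a region shared with Crnde in which replicates 1 and 3 had 708 and 841 tags just outside the window, and it also had regions of 161 and 171 tags at that end in replicate 2 alone. Dlx3 had 80 tags at its other end, in a region with 35 and 52 tags in replicates 1 and 3 just outside the window, and a region of 70 tags over its first end in replicate 2 alone.

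The other 7 partly called genes followed no single library, and pairs of libraries made 2 (replicates 1 and 2), 1 (replicates 1 and 3) and 3 (replicates 2 and 3) of these calls, beside 0.601%, 0.596% and 0.777% of all protein-coding genes. Nkx2-2, a factor of ventral neural tube and pancreas, had 35 and 148 tags in replicates 1 and 2, and the gut factor Cdx1 had 35 and 85. Lhx8 had 68 and 28 tags in replicates 2 and 3, and the cortical factor Neurod2 had 80 and 38. Myod1, the muscle determination factor, had 58 and 56 tags in replicates 2 and 3, whereas Myog, the muscle differentiation factor, had 118 and 123 in replicates 1 and 3. Pax6, the eye and endocrine pancreas factor, had 30 tags in replicate 1.

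No gene-end peak was called in any library at 11 genes (29.4% of all protein-coding genes were without one). They were Pax2, Pax9, Lhx1, Lhx4, Neurod1, Neurod6, Neurog3, Myf5, Myf6, Nkx2-1 and Tbx5. Gene ends were those of the RefSeq gene record, which can reach past the start of the main transcript. Pax9 and Lhx4 lacked a gene-end peak and yet had a shared peak at the start site of the promoter table. With either place accepted, 24 of 51 genes (47.1%) were open in all 3 libraries, beside 66.4% of all protein-coding genes, and 25 (49.0%) in replicates 1 and 3, beside 66.9%.

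Inside the genes the share open in all 3 libraries was close to that of all genes, and the shares of single libraries were higher, most of all in replicate 2. A peak overlapped the gene body in 40, 46 and 39 of the 51 genes in replicates 1, 2 and 3 (78.4%, 90.2% and 76.5%), which is 41.7 ± 3.79 genes (SD, n = 3), beside 74.3%, 76.7% and 74.3% of all protein-coding genes. All 3 libraries shared this at 37 genes (72.5%), beside 73.2%, and replicates 1 and 3 at 38 (74.5%), beside 73.7%. Some library had one at 47 genes (92.2%), beside 77.4%. Length counts here, since a long gene offers more room. Among the 26 genes of up to 6668 bp, the median of the set, 15 (57.7%) had a shared peak, beside 41.4% of protein-coding genes of that length. Among the 25 longer genes 22 (88.0%) had one, beside 85.3%.

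All 8 Lhx genes and 7 of 8 Pax genes had a shared peak inside, as did 5 of 6 Dlx, 5 of 6 Irx, 4 of 7 neural bHLH and 3 of 4 Nkx genes. The counts were 2 of 3 for the sine oculis genes, 1 of 3 for Pdx and Cdx, 2 of 2 for Tbx and 0 of 4 for the myogenic genes, and replicates 1 and 3 gave the same counts except for 1 of 4 myogenic genes. Neurod6, Neurog3, Myf5 and Myf6 had no peak inside the gene in any library.

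Several genes without a gene-end peak carried tall peaks within. Lhx1 had 765, 1033 and 913 tags in a region of 1360 bp on chromosome 11 (84522147 to 84523506, mm10), 2028 bp from the nearer gene end. Its printed promoter lies outside that region. The kidney and ear factor Pax2 had 482, 859 and 583 tags, Pax9 had 274, 511 and 303, and Neurod1 had 210, 338 and 257. Replicate 2 was the highest in each of these 4 genes. The Pax9 region covers its start site of the promoter table, so it is a promoter region inside the gene record. The heart and limb factor Tbx5 had 233, 41 and 204 tags, with replicate 2 the lowest. Lhx4 had its tallest inside peak in replicate 2, in a region with 40 and 235 tags in replicates 1 and 2. Shared regions inside Lhx4 included 1 with 126, 52 and 105 tags, and 1 over its start site with 91, 168 and 105. The lung and thyroid factor Nkx2-1 was low, with 22 and 80 tags in replicates 1 and 2, at percentiles 0.156 and 34.4 of their lists.

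Reproducible regions away from protein-coding gene ends, in the gene and 50 kb on either side, had the same median number as over all genes. Regions at the ends of noncoding genes were kept. A region, made of overlapping peaks, was called reproducible when all 3 libraries had a peak in it. The median was 5 regions per gene (range 1 to 13), beside 5 (range 0 to 72) over all protein-coding genes. Without the library labelled replicate 2 it was again 5, beside 6 over all protein-coding genes. The hepatocyte regulators had a median of 15 (range 5 to 24). Medians by family ran from 1 for the myogenic genes through 2 for the sine oculis genes, 2.5 for Irx and 3 for the neural bHLH genes to 7 for Pax and for Pdx and Cdx. The count takes in the gene itself, so a longer gene offers more room. Pax genes are 13120 to 185947 bp long, Pdx and Cdx genes 5752 to 17338 bp and myogenic genes 1876 to 4020 bp. The medians were not adjusted for length. The highest counts were 13 at Neurod2, 9 at Lhx6 and at Pdx1, and 8 at several genes, among them Lhx3 and Nkx2-5, the latter a heart factor.

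The tallest reproducible regions near the genes included several shared with a neighbour. A region 45171 bp from Pax5, at the end of Zcchc7, reached 926, 1111 and 1160 tags. A region 3891 bp from Lhx1, at the end of Aatf, reached 774, 869 and 911. A region 9471 bp from Lhx6, at no gene end, reached 698, 883 and 922. By pileup the region at Zcchc7 stood at percentiles 98.8 to 99.3 of the lists, and the others at 95.1 to 97.1.

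The genes without any peak inside lay more than 20 kb from the nearest reproducible region. The nearest shared region was 35992 bp from Neurod6, a factor of cortical neurons. Myf5 and Myf6 lie side by side, and the nearest shared region was the same for both, 39745 and 49685 bp away, with 97, 78 and 121 tags. Neurog3, which specifies endocrine cells of the pancreas, had its nearest one 21836 bp away at Fam241b. Myod1, which is not among these genes and had gene-end peaks in replicates 2 and 3, had its nearest shared region at 13999 bp.

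The start sites were then set against promoter composition. CpG observed over expected, in the 300 printed bases, had a median of 0.684 over the 38 genes with a promoter (range 0.163 to 1.18), above the 0.586 of all 17273 protein-coding genes with one. Over all genes a start-site peak, within 1000 bp of the gene's outermost start in the promoter table, was shared by all 3 libraries in 14.8%, 50.3%, 89.7% and 95.5% of the promoters from the lowest to the highest CpG quartile. In the set the counts were 1 of 3, 4 of 13, 8 of 14 and 3 of 8 genes, in the same order, and in replicates 1 and 3 they were 1, 5, 8 and 3. In the upper 2 quartiles 11 of 22 genes (50%) had a shared start-site peak, beside 92.6% of all such promoters. In replicates 1, 2 and 3 the counts were 11, 18 and 12, beside 93.2%, 96.4% and 93.1%. Replicates 1 and 3 without the other library shared 11, beside 92.7%. A lower share was not particular to the set in quartile 3. The 50 further regulators of non-liver lineages had shared start-site peaks at 7 of 15 genes there, and at 8 of 9 in quartile 4.

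The 11 genes of the set with a shared peak were Pax9, Lhx2, Lhx4, Six6, Dlx1, Dlx2, Irx2, Irx3, Nkx6-1, Cdx2 and Tbx20. In the library labelled replicate 2 alone, a start-site peak was found at 6 (Pax1, Pax5, Six2, Six3, Irx4 and Neurog1), beside 2.84% of such promoters. No library had one at Pax6, Lhx1, Neurod1 or Nkx2-2. Pax6 has a further start in the table, and a shared peak lies within 1000 bp of that one. The Six2 and Nkx6-1 sequences printed above, with 37 and 40 CpG, have nearly the same CpG content and differed in this call, and so did Lhx1 with 31. Over all 38 promoters 16 (42.1%) had a shared start-site peak, beside 62.6%, and 17, 26 and 19 had one in replicates 1, 2 and 3, beside 63.7%, 67.6% and 63.7%. Replicate 2 alone had one at 8, beside 3.84%, and at 5 of 36 of the further regulators of non-liver lineages.

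**Figure D3:**
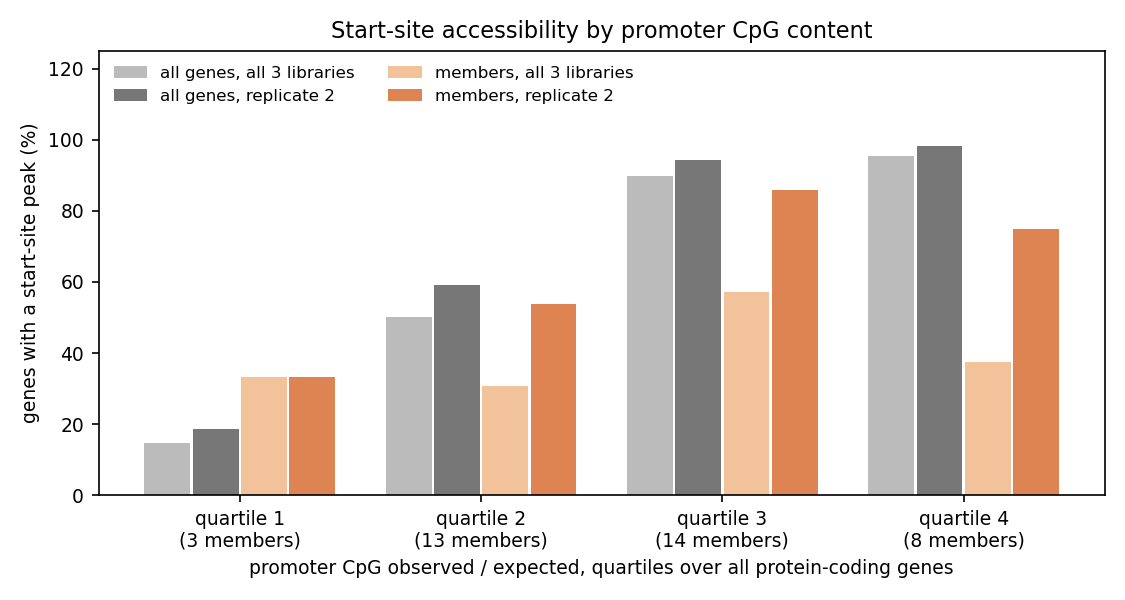
Share of genes (y axis, %) with a start-site peak by quartile of promoter CpG observed over expected (x axis, lowest to highest), for the lineage factor genes (3, 13, 14 and 8 genes with a promoter) and all protein-coding genes, in all 3 libraries and in replicate 2. Shared peaks reached 89.7% and 95.5% of all genes in the upper quartiles, and the bars for shared peaks of the lineage factor genes stand lower there.

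Short motifs were searched on both strands of the same promoters, with matches of different motifs allowed to overlap. AACAAAG, a Sox-type element, was found in 1 of the 38 promoters (Lhx9), beside 4.93% of all promoters, and AACAATG in 1 (Neurog1), beside 3.38%. TATAAA was found in 2 (Lhx3 and Myf5), beside 13.4%, and CCAAT in 18 (47.4%), beside 39.6%. A match is a string of letters and not a binding site.

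Regions near these genes were unevenly shared among libraries. Within the genes and 50 kb on either side lay 505 accessible regions, of which 271 (53.7%) had a peak of all 3 libraries, beside 61.5% of the 139289 regions of the genome. The library labelled replicate 2 alone made 153 of them (30.3%), beside 16.9%, while replicates 1 and 3 each made 11 alone (2.18% each), beside 3.87% and 3.90%. The excess was present at each distance. At gene ends 22 of 68 regions (32.4%) were in replicate 2 alone, beside 9.15% of gene-end regions of the genome. Inside the genes it was 46 of 129 (35.7%) and in the flanks 95 of 333 (28.5%), beside 18.2% of regions away from gene ends. The flanks include ends of neighbouring genes, which the genome regions away from gene ends leave out, so the sets are unlike. A region near neighbouring genes can count in more than 1 place.

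By family the share found in the library labelled replicate 2 alone was highest around the sine oculis genes, at 13 of 23 regions (56.5%), and Pax genes, at 51 of 123 (41.5%). It was 37.5% around Irx and around Tbx genes, 28.9% around Dlx, 27.3% around Pdx and Cdx, 22.2% around neural bHLH and 21.8% around Lhx genes. Nkx genes had 16.7% and myogenic genes 12.5% (2 of 16 regions). Regions of 1 gene share their surroundings and are not independent.

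**Figure D4:**
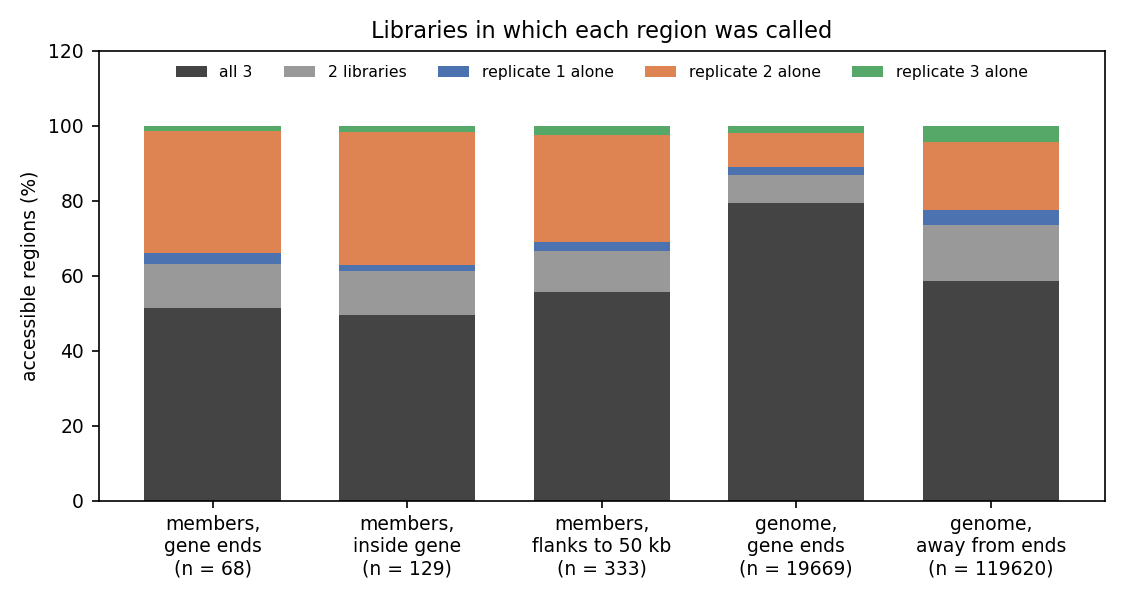
Share of accessible regions (y axis, %) by the libraries in which a peak was called, for regions at the ends, inside and in the flanks of the lineage factor genes and for the genome at and away from gene ends. Regions of replicate 2 alone make up 32.4%, 35.7% and 28.5% at the lineage factor genes and 9.15% and 18.2% in the genome. Regions in the flanks can lie at the ends of neighbouring genes.

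Where all 3 libraries had a peak, the library labelled replicate 2 was taller at these gene ends. Each pileup was divided by the median of its own list, and replicate 2 was then set against the mean of replicates 1 and 3. The ratio had a median of 2.11 over 35 shared regions at gene ends of the set (range 0.656 to 5.48) and was above 1 in 32 of 35 (91.4%), beside 85.6% of all shared gene-end regions. Over the 15605 shared gene-end regions of the genome the median was 1.34. A ratio above 2 was found in 20 of 35 (57.1%), beside 12.8%. In the 236 shared regions inside the genes or in the flanks the median was 1.31, beside 1.10 away from gene ends. Those 236 include regions at the ends of neighbouring genes such as Zcchc7, which the genome regions away from gene ends leave out. The sets are therefore unlike. Replicate 1 over replicate 3 had a median of 1.02 at the gene ends of the set, so the other 2 libraries were at like height. In a population of cells, more open cells and more signal per cell cannot be told apart.

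The highest ratios were those of Nkx6-1 (5.48), Neurod4 (4.37), Tbx20 (3.50), Six6 (3.36) and Lhx3 (3.12). The lowest were those of Pax8 (0.656), Dlx5 (0.808) and Lhx6 (0.948). A gene can have several regions at its ends. At Nkx6-1 the region with the ratio of 5.48 lies beside the one that covers the printed promoter, whose ratio was 2.42. At Six6 the 3 shared regions had ratios of 3.36, 2.83 and 1.48, and the tallest of them, with the values given above, had the lowest.

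**Figure D5:**
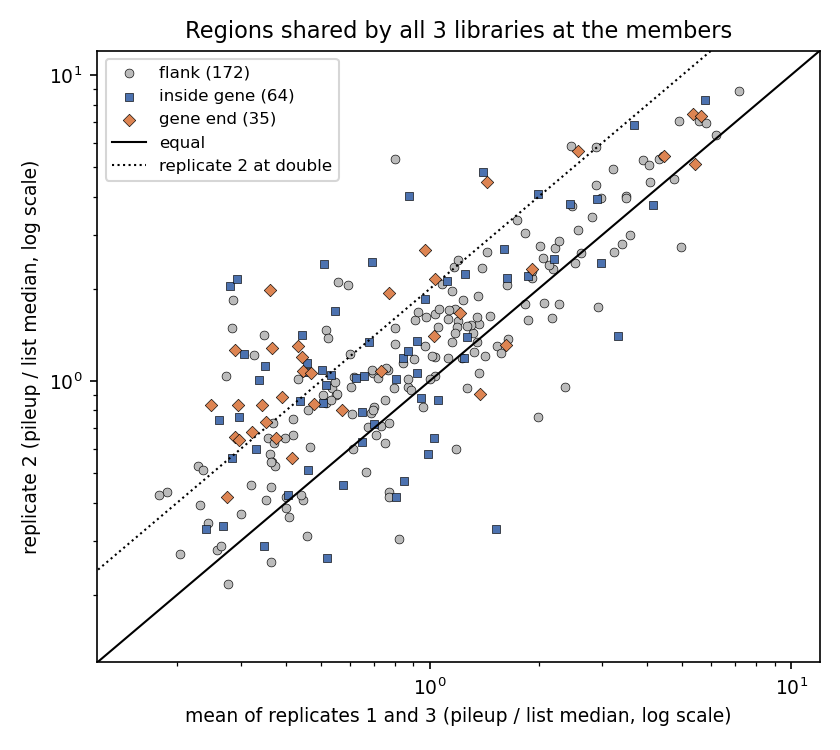
Pileup over list median in replicate 2 (y axis, log scale) against the mean of replicates 1 and 3 (x axis, log scale) for the shared regions at the lineage factor genes, by place. The solid line marks equal height and the dotted line replicate 2 at 2 times the mean, and 20 of the 35 gene-end regions lie above the dotted line.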

How the data were processed

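ATAC-seq peak lists of 3 libraries of 1 group were used. The tools Bowtie2, Picard, deepTools and MACS2 and mm10 as the build come from the submitters' processing notes, which give no settings here. Per the file headers, MACS 2.2.7.1 called peaks in each library separately and without a control, with a shift of 100 bp, an extension of 200 bp, all duplicates kept and a q cutoff of 0.05. The deposited signal is the pileup at each summit, without depth scaling. The −log10 q and −log10 p values and the fold, a ratio to a background taken over up to 10000 bp, were deposited by the authors. They describe peaks within 1 list. Calls depend on depth (96066404 to 117450440 tags), and a missing peak says only that the threshold was not passed, so no interval or p-value is given.

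Rows with the same chromosome, start and end were taken as 1 peak, and peaks overlapping by 1 bp or more were merged into regions across libraries. Where several peaks or summits lay in a region, the highest value was used. Gene positions and promoters came from RefSeq on GRCm38.p6, which shares its coordinates with mm10. The gene table gives no strand, so both gene ends were used; strand came with the promoters, and where a gene has several starts the outermost was used. Expected CpG is the product of the C and G counts over the length. Values were computed with Python 3.11.15, numpy 2.4.6 and pandas 2.3.3, and the counting was tested on simulated peaks. The genes named with values are the 10 with the highest median gene-end fold, those called in 1 or 2 libraries, the 5 with most regions away from gene ends and the 5 tallest regions; other genes were named after their values were seen. The gene set and the comparison lists were chosen with earlier results of these data known. Other window sizes, thresholds and list lengths, and leaving out each library, were tried.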

Additional observations from a re-analysis of the deposited data

How the results depend on the processing

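Of 75 recomputed values, 66 stayed within 1.5 times or 1 SD of the reported ones and 9 moved. The 75 include sets of 12, 6, 7 and 9 background values over protein-coding genes, none of which moved. All 9 that moved were values of the lineage factor genes. Of these, 3 were medians of regions away from gene ends, whose values over all genes were not among the 75 and also fell. Shared gene-end calls at the lineage factor genes, 43.1% (22 of 51), became 66.7% (34) with a window of 2500 bp, beside 70.9%, and 78.4% (40) with a call in any library. With the 50000 peaks of highest −log10 q per library they became 13.7% (7) beside 54.4% of all protein-coding genes. In the same shortened lists, shared peaks inside the gene fell from 37 genes to 19 (37.3%, beside 64.0%), calls in replicate 2 alone from 11 to 7 (13.7%, beside 4.68%), and shared start-site peaks at CpG-rich promoters from 11 to 3 of 22 (13.6%, beside 84.4%). The median of 5 regions away from gene ends (5 over all genes) became 4 with −log10 q of 10 or more (4 over all genes). It became 1 with 50000 peaks per library (2 over all genes) and 2 with flanks of 20 kb (2 over all genes). Leaving out each library gave 45.1% to 49.0% for gene ends (background 65.0% to 65.1%), 74.5% to 76.5% inside genes, 5 to 5 for the median (5 to 6 over all genes) and 50% to 54.5% for CpG-rich start sites. With any start in the promoter table, CpG-rich start sites gave 54.5% (12) beside 92.9%. The cause of these shifts was not tested beyond what shorter lists and wider windows do by construction. The calls in replicate 2 alone and the CpG-rich promoters, and the lists cut to equal length, were chosen after seeing the data. No paired analysis was possible because the labels hold a single group. Depth limits the calls at low peaks, and most gene-end calls at these genes in replicates 1 and 3 were below the median pileup of the list.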

Other observations

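Away from their ends, single regions at these genes reached ratios further from 1 than the gene-end regions did, and these were picked after their values were seen. Inside Pax5 a region of 699 bp, 76449 bp from the nearer gene end, had pileups of 39, 270 and 46 tags in replicates 1, 2 and 3, and its height over the list median was 7.37 times the mean of the other libraries in the library labelled replicate 2. Inside the gene record of Irx2 a region beside Gm20554 had 42, 256 and 38 tags, a ratio of 7.34. That region covers the Irx2 start site of the promoter table, so it is a promoter region although it lies away from the ends of the record. In the flank of Neurog1, at the end of Cxcl14, a chemokine gene, 104, 664 and 129 tags gave a ratio of 6.63. The opposite held inside Tbx5, where 233, 41 and 204 tags gave a ratio of 0.215, and in flanks of Neurog2 (91, 38 and 150 tags, a ratio of 0.371) and Pdx1 (302, 95 and 268 tags, a ratio of 0.382). These 6 regions had a peak of every library, and replicate 2 lay outside the range of the other 2 libraries at each.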
